A study of Mus musculus with 24 samples.

Results

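Wild-type mouse eosinophils that had received granulocyte-macrophage colony-stimulating factor (GM-CSF) overnight were compared directly with wild-type eosinophils that had received interleukin-10 (IL-10) overnight. The members are the 3 libraries whose labels give GM-CSF as the only added cytokine and the 3 whose labels give IL-10 as the only added cytokine, 6 of the 24 libraries of the series, and the comparison covered all genes. Both arms came from C57BL/6 bone marrow and were cultured between day 0 and day 4 in FLT3 ligand plus stem cell factor, each at 100 ng/ml, and afterwards in interleukin-5 (IL-5) at 10 ng/ml to yield eosinophils. Dead cells were removed on day 13 and IL-5 at 10 ng/ml stayed in the medium of every group, so each arm is a comparison on top of IL-5 and neither is free of cytokine. GM-CSF was given at 20 ng/ml, while the dose of IL-10 is not stated in the labels, so the arms are not matched by dose. The 3 wild-type libraries with both cytokines and the 3 left in IL-5 alone, called untreated here, stood outside the comparison itself. They served to place the genes that differed, and the untreated ones were also the reference for effects of a single cytokine. Both groups were part of the fit and so of its filter, scaling and estimate of the spread. The remaining 12 libraries, labelled Csf2ra-/- or Irf5-/- and left untreated or given GM-CSF, entered the same fit. The protocol speaks of triplicates and does not say whether they came from separate animals or cultures. Each p-value rests on library-to-library variation estimated over the whole fit, and how much of that variation is technical was not tested. Libraries of an arm differed in the level of Y-linked genes and by more than sampling noise, as given below. Replicate numbers follow the order of deposit, only name the libraries and pair none across arms.

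GM-CSF and IL-5 bind separate alpha chains that share the common beta chain Csf2rb, and both act through JAK2 and STAT5 together with MAPK and NF-kB branches that favour survival and cytokine production in eosinophils. IL-10 binds Il10ra and Il10rb, acts through JAK1, TYK2 and STAT3, and is known mainly for restraining inflammatory cytokine genes in myeloid cells. STAT5 and STAT3 recognise much the same palindromic DNA letters, which is why genes known as targets of each were read side by side.

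Total counts ranged from 11653200 to 18295944 in the 6 libraries and 13961 to 14189 genes had a count in each. Levels are given as CPM, a gene's count scaled to a common library total after TMM normalization, and 11885 of 25746 listed genes were tested. The eosinophil granule genes were at the top of both arms. Prg2 (major basic protein) averaged 41351 ± 1132 CPM with GM-CSF and 45626 ± 92.7 CPM with IL-10, and Epx (eosinophil peroxidase) averaged 14120 ± 859 CPM with GM-CSF and 15469 ± 1627 CPM with IL-10 (SD, n = 3 each). Mitochondrial genes took 0.711% to 0.814% of the counts. Added up over 4 Y-linked genes, the level was 184, 176 and 52.6 CPM in the GM-CSF arm and 59.9, 54.3 and 175 CPM in the IL-10 arm, so the arms hold different mixtures of libraries with high and low Y-linked counts. In bulk RNA, fewer cells of a type and less RNA per cell cannot be told apart.

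GM-CSF cells had more transcript of the chemokine genes Ccl17, Ccl22, Ccl4, Ccl3 and Cxcl2, of the inflammatory cytokine genes Il1a, Il1b and Tnf, and of the fungal receptor gene Clec4n than IL-10 cells. They had less of the signalling genes Bcl3, Jak3 and Stat3, of the growth factor gene Igf1 and of the macrophage-associated gene Mrc1. Granule genes, the IL-10 receptor genes and the common beta chain gene were not called. edgeR's quasi-likelihood test called 148 of 11885 genes (1.25%) at a Benjamini-Hochberg adjusted p under 0.05 over all tested genes. Of these, 91 (0.766%) were higher with GM-CSF and 57 (0.48%) were lower. By at least 2-fold, 60 genes (0.505%) were higher and 29 (0.244%) lower. In all 148 genes the GM-CSF libraries did not overlap the IL-10 libraries, which was so for 21.3% of all tested genes. The median log2 fold change over all tested genes was 0.00, and every log2 fold change below is GM-CSF minus IL-10 with its SE unless another pair is named. Adjusted p-values are from edgeR's quasi-likelihood test with Benjamini-Hochberg adjustment. The number of calls depended on single libraries: it was 54 without IL-10 replicate 1, 61 without IL-10 replicate 2, 78 without GM-CSF replicate 2, 89 without GM-CSF replicate 1 and 91 without GM-CSF replicate 3. All 148 genes kept their direction in these fits. Their arms did not overlap, so leaving out 1 library could hardly change a sign, and this is no separate support.

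**Figure D1:**
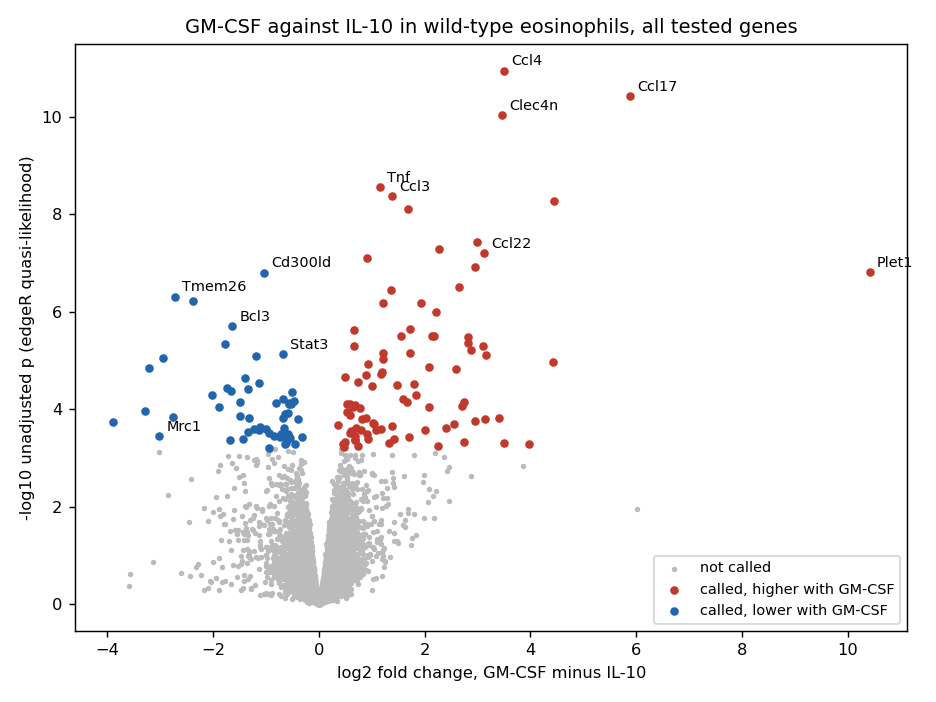
Each point is 1 of the 11885 tested genes, with the log2 fold change of GM-CSF minus IL-10 on the horizontal axis and -log10 of the unadjusted edgeR p on the vertical axis. Red points are the 91 genes called higher with GM-CSF and blue points the 57 called lower; Plet1 lies far to the right at 10.42.

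Chemokine genes held several of the named differences. Of 12 chemokine genes tested, 5 were higher with GM-CSF (Ccl17, Ccl4, Ccl22, Cxcl2 and Ccl3), none was lower, and the median log2 fold change of the 12 was 0.68, against 0.00 for all tested genes. Over all tested genes 0.766% were called higher and 0.48% lower, and these shares stand beside every list below. Ccl17 (ENSMUSG00000031780, GRCm38 chr8:94810453-94812036), a ligand of CCR4 on T cells, had 153, 79.6 and 174 CPM with GM-CSF and 2.41, 2.67 and 1.72 CPM with IL-10. Every GM-CSF library lay far above every IL-10 library, and the log2 fold change was 5.88 ± 0.45 (adjusted p = 2.26e-07). Its neighbour on the same chromosome and fellow CCR4 ligand Ccl22 (ENSMUSG00000031779, GRCm38 chr8:94745590-94751699) had 209, 151 and 179 CPM with GM-CSF and 18.7, 15.5 and 27.6 CPM with IL-10, again without overlap (3.13 ± 0.37, adjusted p = 7.58e-05). The window around the start of Ccl17, chr8:94810203-94810502 on the plus strand of GRCm38.p6 from RefSeq, is shown because this gene had the second largest difference of the named genes; capitals mark a STAT-type palindrome, TTCNNNGAA, that begins 99 bases before the start.
Ccl17: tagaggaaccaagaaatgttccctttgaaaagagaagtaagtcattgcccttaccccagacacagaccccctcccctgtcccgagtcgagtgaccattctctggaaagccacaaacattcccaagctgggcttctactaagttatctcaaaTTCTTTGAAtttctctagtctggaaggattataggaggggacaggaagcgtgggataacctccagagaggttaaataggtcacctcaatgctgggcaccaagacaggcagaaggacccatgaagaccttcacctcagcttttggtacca
The palindrome reads the same on both strands, and 8.3% of 32851 RefSeq mouse promoter windows of this length hold it, as do 6.94% of the 11728 windows of tested genes.

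The inflammatory chemokine genes Ccl4 and Ccl3 and the neutrophil attractant Cxcl2 were higher too. Ccl4 (ENSMUSG00000018930, GRCm38 chr11:83662584-83664683) had 56.0, 41.6 and 41.9 CPM with GM-CSF and 2.94, 4.01 and 5.42 CPM with IL-10 (3.51 ± 0.27, adjusted p = 1.36e-07). Ccl3 had 74.1, 76.3 and 64.8 CPM with GM-CSF and 28.4, 29.4 and 24.7 CPM with IL-10 (1.38 ± 0.15, adjusted p = 1.01e-05). Cxcl2 (ENSMUSG00000058427, GRCm38 chr5:90903871-90905938) had 36.5, 32.9 and 25.9 CPM with GM-CSF and 8.50, 11.4 and 9.73 CPM with IL-10 (1.69 ± 0.19, adjusted p = 1.36e-05). The arms were apart in all 3 genes, and the gap was widest for Ccl4. The Cxcl2 window, chr5:90903649-90903948 on the plus strand, is shown because it holds 3 matches to the NF-kB-like letters GGG and TTCC separated by any 3 bases, on either strand, beginning 97, 96 and 78 bases before the start, the first pair overlapping; capitals mark the matches.
Cxcl2: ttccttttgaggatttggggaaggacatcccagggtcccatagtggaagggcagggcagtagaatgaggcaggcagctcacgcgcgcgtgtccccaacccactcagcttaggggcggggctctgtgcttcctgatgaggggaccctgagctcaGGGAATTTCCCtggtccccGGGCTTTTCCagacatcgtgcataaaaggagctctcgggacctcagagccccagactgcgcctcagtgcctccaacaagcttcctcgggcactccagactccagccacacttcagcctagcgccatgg
These letters stand in 5.56% of all 32851 windows and 6.18% of the 11728 windows of tested genes. They stand in 7 of 68 genes higher with GM-CSF (10.3%) and in 7 of 42 genes lower with GM-CSF (16.7%). A gene counts with a match in any of its windows, so shares of genes and shares of windows are not like for like.

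Not every chemokine gene was called. Ccl24 (eotaxin-2), an eosinophil attractant, had 11.4, 7.07 and 15.3 CPM with GM-CSF and 11.4, 12.8 and 9.55 CPM with IL-10, and the arms overlapped (-0.01 ± 0.37, 95% interval -0.78 to 0.76, adjusted p = 0.995). Both arms stood above the untreated libraries at 1.83, 1.38 and 1.12 CPM, and the libraries with both cytokines were at 46.6, 60.7 and 26.3 CPM. The monocyte attractant Ccl2 was at 0.94 ± 0.34 and was not called (adjusted p = 0.271).

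Among inflammatory cytokine genes, 3 of 8 tested were called higher with GM-CSF (0.766% of all tested genes were) and none lower, with a median of 0.50. Il1b (ENSMUSG00000027398, GRCm38 chr2:129364570-129371139), which encodes interleukin-1 beta, had 15.7, 11.2 and 8.32 CPM with GM-CSF and 1.61, 1.20 and 1.64 CPM with IL-10 (2.99 ± 0.36, adjusted p = 5.43e-05). Its neighbour Il1a had 5.49, 7.29 and 1.95 CPM with GM-CSF and 0.803, 0.535 and 0.258 CPM with IL-10 (3.16 ± 0.54, adjusted p = 0.00252). GM-CSF replicate 3 was the lowest GM-CSF library for both genes, yet still above every IL-10 library. Tnf had 45.6, 49.0 and 36.4 CPM with GM-CSF and 18.9, 20.4 and 19.7 CPM with IL-10 (1.15 ± 0.12, adjusted p = 8.3e-06). For Tnf the untreated libraries, at 30.8, 28.6 and 29.2 CPM, lay between the arms without touching either. The difference from untreated was 0.56 ± 0.12 for GM-CSF (adjusted p = 0.022) and -0.59 ± 0.12 for IL-10 (adjusted p = 0.0682); the first was lost without GM-CSF replicate 1 (adjusted p = 0.117) or 2 (adjusted p = 0.161), and both share the untreated libraries. The interleukin-1 receptor antagonist gene Il1rn had 180, 409 and 157 CPM with GM-CSF and 118, 126 and 112 CPM with IL-10. The arms did not overlap, GM-CSF replicate 2 stood far above the other libraries, and the gene was not called (1.07 ± 0.38, adjusted p = 0.262). Il6 was at 0.60 ± 0.23 and was not called either (adjusted p = 0.334).

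Among 4 type 2 and regulatory cytokine genes tested, Il13 and Tgfb1 were higher with GM-CSF. Il13, an effector cytokine of type 2 immunity, had 11.3, 17.5 and 9.55 CPM with GM-CSF and 5.22, 6.42 and 5.42 CPM with IL-10 (1.17 ± 0.22, adjusted p = 0.00482). Tgfb1 stood at 0.53 ± 0.11 (adjusted p = 0.0171) and Il4 at 0.42 ± 0.15, which was not called (adjusted p = 0.245). Il13 lost its call without GM-CSF replicate 2 or IL-10 replicate 1 (adjusted p up to 0.0579), and Tgfb1 without GM-CSF replicate 2 or 3 or IL-10 replicate 1 or 2 (adjusted p up to 0.174). Other secreted factors higher with GM-CSF were Inhba, which encodes the activin A subunit, and Pdgfa, a platelet-derived growth factor chain. Inhba had 9.77, 8.17 and 6.58 CPM with GM-CSF and 1.07, 1.00 and 1.89 CPM with IL-10 (2.65 ± 0.37, adjusted p = 0.000245). Pdgfa had 7.83, 6.63 and 8.32 CPM with GM-CSF and 1.87, 2.00 and 1.72 CPM with IL-10 (2.01 ± 0.46, adjusted p = 0.0288). The libraries were apart in both genes, but the Pdgfa call was lost when any 1 of the 6 libraries was left out (adjusted p 0.0686 to 0.171).

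**Figure D2:**
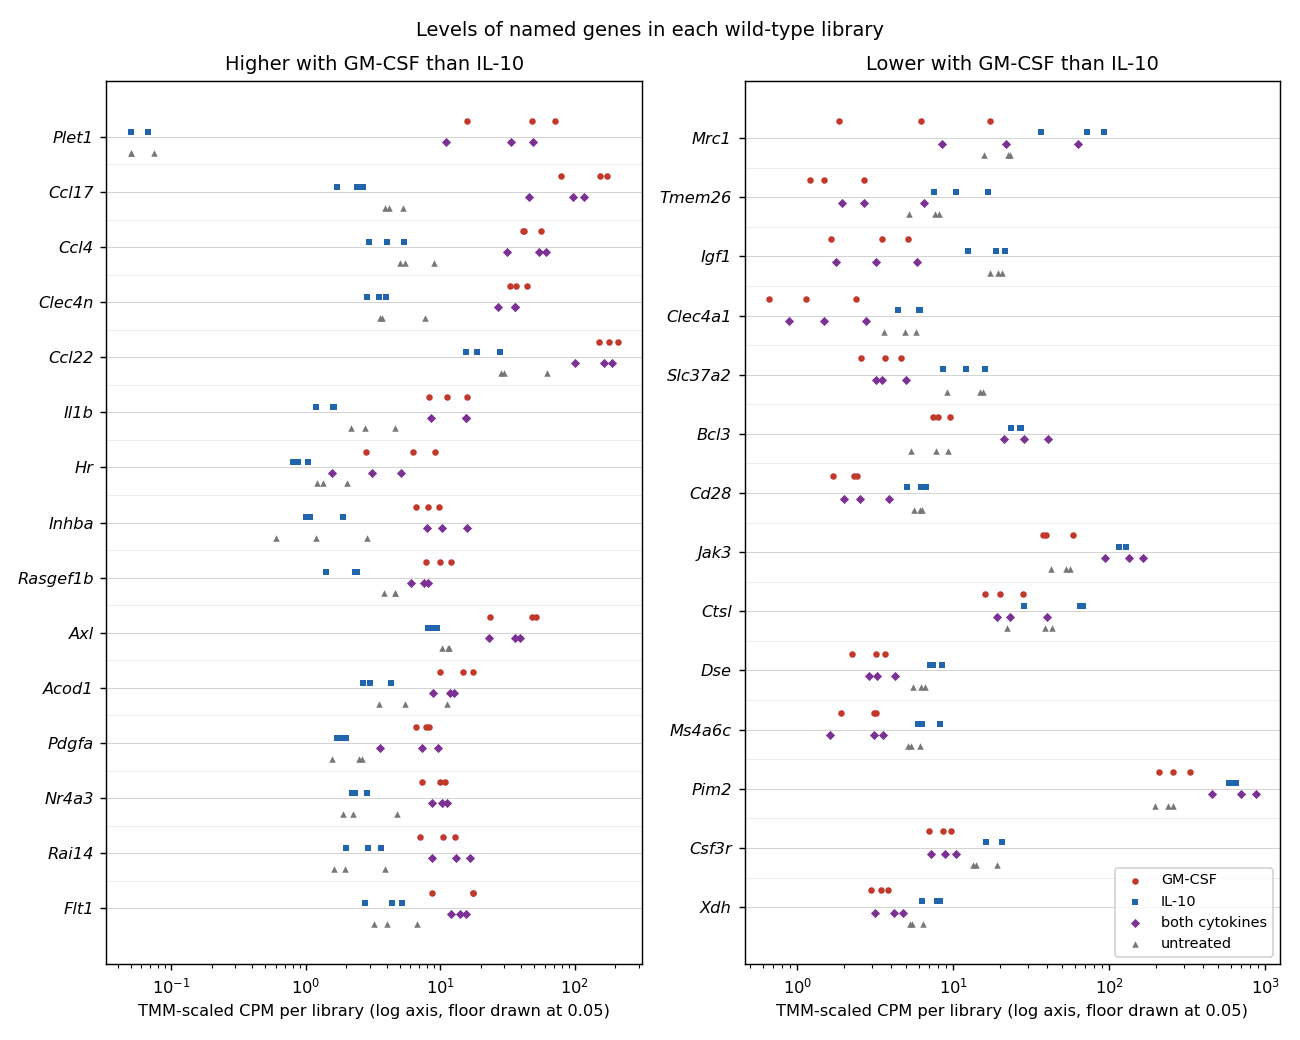
Levels of 15 named genes higher with GM-CSF (left) and 14 lower (right) in each wild-type library, as TMM-scaled CPM on a log axis with values under 0.05 drawn at 0.05. Red circles are GM-CSF, blue squares IL-10, purple diamonds both cytokines and grey triangles untreated; in every row the red and blue symbols do not overlap, as for Ccl17 at 79.6 to 174 CPM with GM-CSF and 1.72 to 2.67 CPM with IL-10.

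Plet1, Clec4n and Axl were the surface protein genes with the largest differences in this direction among the named genes. Plet1 (ENSMUSG00000032068, GRCm38 chr9:50494525-50505482), which encodes a surface protein of epithelial progenitors and some dendritic cells, had 48.2, 15.8 and 71.2 CPM with GM-CSF and 0.0669, 0 and 0 CPM with IL-10. The GM-CSF arm held 2116 counts in all and the IL-10 arm 1, a ratio of counts per total of 1773 with an exact 95% counting interval of 318 to 70075, which covers counting error only. GM-CSF replicate 2 was the lowest of its arm, and all 3 GM-CSF libraries were apart from IL-10 (adjusted p = 0.000135). The Plet1 call was lost in limma-voom (adjusted p = 0.134) and in a fit of the 6 libraries alone (adjusted p = 0.0546). Its window, chr9:50494275-50494574 on the plus strand, is shown as that of the gene closest to off in 1 arm. Capitals mark a match to the AP-1-like letters TGANTCA, beginning 144 bases before the start. Any middle base is allowed, T in this match, so the letters are looser than the AP-1 site itself.
Plet1: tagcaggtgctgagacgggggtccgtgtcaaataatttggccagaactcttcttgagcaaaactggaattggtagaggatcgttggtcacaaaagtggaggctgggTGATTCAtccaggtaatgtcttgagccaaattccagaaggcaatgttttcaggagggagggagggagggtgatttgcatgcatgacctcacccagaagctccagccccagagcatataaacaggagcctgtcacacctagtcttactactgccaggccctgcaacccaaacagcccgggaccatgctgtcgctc
These letters, which read the same on both strands, stand in 7.81% of all 32851 windows and in 5.08% of the 11728 windows of tested genes. Counted by gene, with a match in any of its windows, they stand in 12 of 68 genes higher with GM-CSF (17.6%). Among genes lower with GM-CSF they stand in 7 of 42 (16.7%).

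Clec4n (ENSMUSG00000023349, GRCm38 chr6:123229843-123247021), which encodes dectin-2, a receptor for fungal mannans, had 43.9, 32.9 and 36.9 CPM with GM-CSF and 3.48, 2.87 and 3.96 CPM with IL-10 (3.47 ± 0.30, adjusted p = 3.67e-07). Of 26 lectin, Toll-like and Fc receptor genes tested, 4 were higher (Clec4n, Clec7a, Tlr2 and Cd14) and 3 lower (Tlr8, Clec4a1 and Tlr1), with a median of -0.00. The called shares over all tested genes were 0.766% higher and 0.48% lower. Tlr2, a receptor for bacterial lipopeptides, had 13.3, 11.3 and 11.3 CPM with GM-CSF and 4.42, 4.14 and 5.42 CPM with IL-10 (1.37 ± 0.19, adjusted p = 0.000273). Tlr8, an endosomal receptor, had 0.286, 0.219 and 0.362 CPM with GM-CSF and 2.94, 3.27 and 1.89 CPM with IL-10 (-3.22 ± 0.58, adjusted p = 0.00382). The receptor genes therefore did not move as a block: Clec4n and Tlr2 were higher with GM-CSF in every library, and Tlr8 was lower in every library. Clec4a1 belongs to a family of similar genes on chromosome 6 and its counts are uncertain for that reason; it was at 1.14, 0.658 and 2.39 CPM with GM-CSF and 6.16, 6.01 and 4.39 CPM with IL-10 (-2.02 ± 0.40, adjusted p = 0.01). Tlr1, at -1.67 ± 0.40, and Clec7a, at 0.60 ± 0.14, lost their calls when any 1 library was left out (adjusted p up to 0.215 and 0.199). Cd14 was at 1.07 ± 0.25 and lost its call without GM-CSF replicate 1 or 3 or IL-10 replicate 1 or 2 (adjusted p up to 0.246), as Clec4a1 did without GM-CSF replicate 1 or 2 or IL-10 replicate 1 or 2 (adjusted p up to 0.0948). The receptor tyrosine kinase gene Axl, which binds the ligand Gas6, had 48.1, 23.6 and 51.6 CPM with GM-CSF and 8.90, 8.09 and 9.47 CPM with IL-10 (2.22 ± 0.32, adjusted p = 0.000582). The integrin gene Itgax (CD11c) had 73.2, 73.3 and 79.7 CPM with GM-CSF and 42.8, 39.8 and 38.0 CPM with IL-10 (0.91 ± 0.12, adjusted p = 8.56e-05).

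Genes of the JAK-STAT pathways fell on both sides. Il10ra, the ligand-binding chain for IL-10, was not called and averaged 147 ± 25.5 CPM with GM-CSF and 150 ± 6.14 CPM with IL-10 (SD, n = 3 each; -0.02 ± 0.24, 95% interval -0.53 to 0.48), and the common beta chain gene Csf2rb, not called either, averaged 3648 ± 623 CPM with GM-CSF and 3831 ± 160 CPM with IL-10 (-0.07 ± 0.13, 95% interval -0.35 to 0.21). Csf2rb and its copy Csf2rb2 (-0.06 ± 0.15) are near-identical, so counts of each are uncertain. Il10rb, the second IL-10 chain, was at -0.14 ± 0.11 and Il5ra, the IL-5 alpha chain, at -0.05 ± 0.24, and neither was called. Csf2ra, the alpha chain for GM-CSF, had 58.7, 83.8 and 74.0 CPM with GM-CSF and 41.8, 47.4 and 46.5 CPM with IL-10 (0.67 ± 0.14, adjusted p = 0.0133); it lost its call without GM-CSF replicate 2 or 3 or IL-10 replicate 1 or 2 (adjusted p up to 0.134). Of 23 cytokine receptor and JAK-STAT genes tested, Csf2ra was the only one higher and Csf3r, Jak3 and Stat3 were lower, with a median of -0.11.

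Of 18 genes known as STAT5 targets, 5 were higher with GM-CSF (Cish, Socs1, Socs2, Ccnd2 and Bcl2l1) and 2 lower (Bcl6 and Pim2), with a median of 0.30 over the list. Over all tested genes the called shares were 0.766% higher and 0.48% lower. Cish (ENSMUSG00000032578, GRCm38 chr9:107296026-107302784), a feedback inhibitor of cytokine receptors, had 324, 393 and 364 CPM with GM-CSF and 243, 243 and 262 CPM with IL-10 (0.53 ± 0.11, adjusted p = 0.013). Socs1, a feedback inhibitor of JAK kinases, had 52.6, 85.8 and 78.7 CPM with GM-CSF and 31.7, 39.2 and 34.9 CPM with IL-10 (1.04 ± 0.23, adjusted p = 0.0246). The cell cycle gene Ccnd2 had 59.1, 54.3 and 45.2 CPM with GM-CSF and 33.3, 34.7 and 32.0 CPM with IL-10 (0.66 ± 0.11, adjusted p = 0.00117). These differences were under 2-fold or close to it, and the libraries did not overlap. Bcl6 (ENSMUSG00000022508, GRCm38 chr16:23965052-23988852), a transcriptional repressor that STAT5 is known to repress, was on the other side, at 4.97, 6.03 and 8.39 CPM with GM-CSF and 12.4, 9.96 and 11.5 CPM with IL-10 (-0.81 ± 0.17, adjusted p = 0.0129). The survival kinase gene Pim2 had 257, 208 and 329 CPM with GM-CSF and 635, 645 and 587 CPM with IL-10 (-1.23 ± 0.28, adjusted p = 0.0282). Socs2 was at 0.64 ± 0.13 and the survival gene Bcl2l1 at 0.37 ± 0.08. Calls in this list were fragile to single libraries, apart from Ccnd2, whose call held in all 14 alternative fits. Cish lost its call without GM-CSF replicate 2 or 3 or IL-10 replicate 1 or 2 (adjusted p up to 0.105), Bcl6 without GM-CSF replicate 1 or 2 or IL-10 replicate 1 (up to 0.117), and Pim2 without GM-CSF replicate 1 or 2 or IL-10 replicate 1 or 2 (up to 0.187). Socs1 and Bcl2l1 lost theirs without GM-CSF replicate 2 or 3 or any IL-10 library (adjusted p up to 0.184 for Socs1 and 0.188 for Bcl2l1), and Socs2 without GM-CSF replicate 2 or IL-10 replicate 1 or 3 (up to 0.17).

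The windows of Cish, chr9:107296409-107296708 on the plus strand, and of a second start of Bcl6, chr16:23981234-23981533 on the minus strand, are shown because they carry several STAT-type palindromes and belong to genes on opposite sides of the comparison; capitals mark TTCNNNGAA.
Cish: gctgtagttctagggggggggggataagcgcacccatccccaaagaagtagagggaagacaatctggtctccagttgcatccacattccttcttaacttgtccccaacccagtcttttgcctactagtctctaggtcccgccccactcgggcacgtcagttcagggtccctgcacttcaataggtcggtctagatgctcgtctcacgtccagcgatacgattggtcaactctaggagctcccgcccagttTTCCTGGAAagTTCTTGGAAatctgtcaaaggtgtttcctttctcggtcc
Bcl6: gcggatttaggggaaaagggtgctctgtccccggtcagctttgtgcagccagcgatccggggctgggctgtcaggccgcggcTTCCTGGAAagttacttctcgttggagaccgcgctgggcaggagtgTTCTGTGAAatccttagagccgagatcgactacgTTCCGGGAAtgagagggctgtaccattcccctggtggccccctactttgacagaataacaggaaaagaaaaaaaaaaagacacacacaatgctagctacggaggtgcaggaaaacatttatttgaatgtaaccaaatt
Cish holds 2 matches, beginning at RefSeq's start and 11 bases after it, and that start lies inside the gene coordinates given above. Bcl6 holds 3, beginning 168, 122 and 88 bases before its second start. Counted by gene, with a match in any of its windows, the palindrome stood in 3 of 68 genes higher with GM-CSF (4.41%) and in 5 of 42 lower (11.9%). Counted by window, it stood in 6.94% of windows of tested genes and 8.3% of all windows. The windows of Socs1, Pim2, Bcl3, Jak3 and Stat3 hold no such match, which says only that these letters are not in those 300 bases.

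Among 21 genes known as IL-10 or STAT3 targets, 3 were lower with GM-CSF (Bcl3, Stat3 and Lrg1), 1 was higher (Il21r) and the median was -0.21. Called shares over all tested genes were 0.48% lower and 0.766% higher. Bcl3 (ENSMUSG00000053175, GRCm38 chr7:19808462-19822770), a nuclear partner of NF-kB p50 and a known STAT3 target, had 7.94, 7.46 and 9.55 CPM with GM-CSF and 26.8, 27.1 and 23.5 CPM with IL-10 (-1.64 ± 0.26, adjusted p = 0.00106). Stat3 itself (ENSMUSG00000004040, GRCm38 chr11:100885098-100939540) had 209, 205 and 222 CPM with GM-CSF and 351, 341 and 329 CPM with IL-10 (-0.68 ± 0.12, adjusted p = 0.00245). Jak3 (ENSMUSG00000031805, GRCm38 chr8:71676296-71690575), the kinase of the common gamma chain, had 39.6, 37.7 and 58.8 CPM with GM-CSF and 115, 128 and 116 CPM with IL-10 (-1.40 ± 0.26, adjusted p = 0.00559). The 3 genes were lower in every GM-CSF library, with narrow spreads in both arms for Stat3, and their calls held in all 14 alternative fits. The secreted glycoprotein gene Lrg1 was at -1.14 ± 0.26 (adjusted p = 0.0288) and Il21r, a cytokine receptor gene, at 0.48 ± 0.12 (adjusted p = 0.0479), and both calls were lost when any 1 library was left out (adjusted p up to 0.187 and 0.207). Socs3, the feedback inhibitor most used to read IL-10 signalling, had 36.9, 39.6 and 51.8 CPM with GM-CSF and 43.0, 45.4 and 37.0 CPM with IL-10, and the arms overlapped (0.03 ± 0.21, 95% interval -0.40 to 0.46, adjusted p = 0.968). Untreated libraries had 21.3, 29.1 and 30.3 CPM of Socs3 and those with both cytokines 73.2, 91.8 and 51.2 CPM. The granulocyte colony-stimulating factor receptor gene Csf3r had 9.60, 7.02 and 8.54 CPM with GM-CSF and 20.6, 16.3 and 20.6 CPM with IL-10 (-1.19 ± 0.21, adjusted p = 0.0026).

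Of 23 genes tested from the NF-kB target and feedback list, 5 were higher with GM-CSF (Bcl2a1d, Bcl2a1b, Cd83, Nfkbie and Icam1) and Bcl3 alone was lower, with a median of 0.48. Across all tested genes, 0.766% were called higher and 0.48% lower. Nfkbie, an inhibitor of NF-kB, had 26.5, 29.6 and 25.7 CPM with GM-CSF and 16.8, 18.9 and 15.6 CPM with IL-10 (0.67 ± 0.11, adjusted p = 0.0019). The adhesion gene Icam1 had 32.9, 34.8 and 32.5 CPM with GM-CSF and 23.4, 25.7 and 22.3 CPM with IL-10 (0.49 ± 0.09, adjusted p = 0.00542). Both were small differences with little spread inside an arm. The survival genes Bcl2a1d, at 2.95 ± 0.38, and Bcl2a1b, at 0.75 ± 0.14, are near-identical copies, so how reads were divided between them is uncertain; Bcl2a1b lost its call without GM-CSF replicate 2 or IL-10 replicate 1 (adjusted p up to 0.0657). Cd83, a marker of mature dendritic cells, was at 1.33 ± 0.33 and lost its call when any 1 library was left out (adjusted p up to 0.229). The apoptosis list repeated Bcl2l1, Bcl2a1d and Bcl2a1b among its 3 higher members of 25 tested, and the inflammatory caspase gene Casp4 was its 1 lower member, at -0.74 ± 0.18. Casp4 lost its call without any 1 GM-CSF library or without IL-10 replicate 1 or 2 (adjusted p up to 0.249).

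Of 28 immediate early and MAPK feedback genes, Nr4a3, Nr4a1 and Egr2 were higher with GM-CSF and none was lower, with a median of 0.13. Nr4a3, a nuclear receptor gene, had 9.89, 10.9 and 7.38 CPM with GM-CSF and 2.34, 2.21 and 2.84 CPM with IL-10 (1.94 ± 0.28, adjusted p = 0.000399). Egr2, a zinc finger factor, had 15.3, 16.8 and 17.6 CPM with GM-CSF and 7.83, 7.48 and 6.11 CPM with IL-10 (1.20 ± 0.17, adjusted p = 0.000399). Its relative Egr1 had 67.3, 110 and 118 CPM with GM-CSF and 160, 169 and 129 CPM with IL-10. Egr1 was not called (-0.64 ± 0.21, adjusted p = 0.222), and both arms lay below the untreated libraries at 244, 364 and 378 CPM. Other named genes higher with GM-CSF were Rasgef1b, a Ras exchange factor gene (2.28 ± 0.28), Acod1, which makes itaconate (2.09 ± 0.37), Flt1, a receptor for vascular endothelial growth factor (1.80 ± 0.34), Hr, a nuclear corepressor gene (2.74 ± 0.56), and Rai14 (1.83 ± 0.36). Hr lost its call without GM-CSF replicate 3 or IL-10 replicate 1 or 2 (adjusted p up to 0.105), and Rai14 without GM-CSF replicate 1 or IL-10 replicate 2 (up to 0.0986).

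Of 15 costimulatory genes tested, Tnfsf4 (OX40 ligand) and Tnfsf8 (CD30 ligand) were called higher with GM-CSF, where 0.766% of all tested genes were. None was called lower and the median was 0.05. Tnfsf4 had 3.14, 2.80 and 2.17 CPM with GM-CSF and 0.468, 0.601 and 0.775 CPM with IL-10 (2.15 ± 0.35, adjusted p = 0.0014). Tnfsf8 was low, at 1.14, 0.439 and 1.09 CPM with GM-CSF and 0.134, 0 and 0 CPM with IL-10, and lost its call without GM-CSF replicate 1 or 3 or any 1 IL-10 library (adjusted p up to 0.273). The Tnfsf8 call was also lost in DESeq2, unfiltered, in the 12 wild-type libraries and with the Y-linked covariate. Cd274 (PD-L1) had 40.2, 33.9 and 35.4 CPM with GM-CSF and 40.1, 35.2 and 30.6 CPM with IL-10, and the arms overlapped (0.05 ± 0.16, 95% interval -0.28 to 0.38, adjusted p = 0.936). None of 11 MHC class II presentation genes was called by edgeR, DESeq2 or limma-voom, 2 had an unadjusted edgeR p under 0.05 (11% of all tested genes did), and their median was 0.26. Of 14 eicosanoid synthesis genes, only the prostaglandin D synthase gene Hpgds was called, at 1.03, 1.26 and 1.01 CPM with GM-CSF and 4.68, 4.54 and 3.01 CPM with IL-10 (-1.88 ± 0.39, adjusted p = 0.0138); this call was lost without any 1 GM-CSF library or without IL-10 replicate 1 or 2 (adjusted p up to 0.107).

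**Figure D3:**
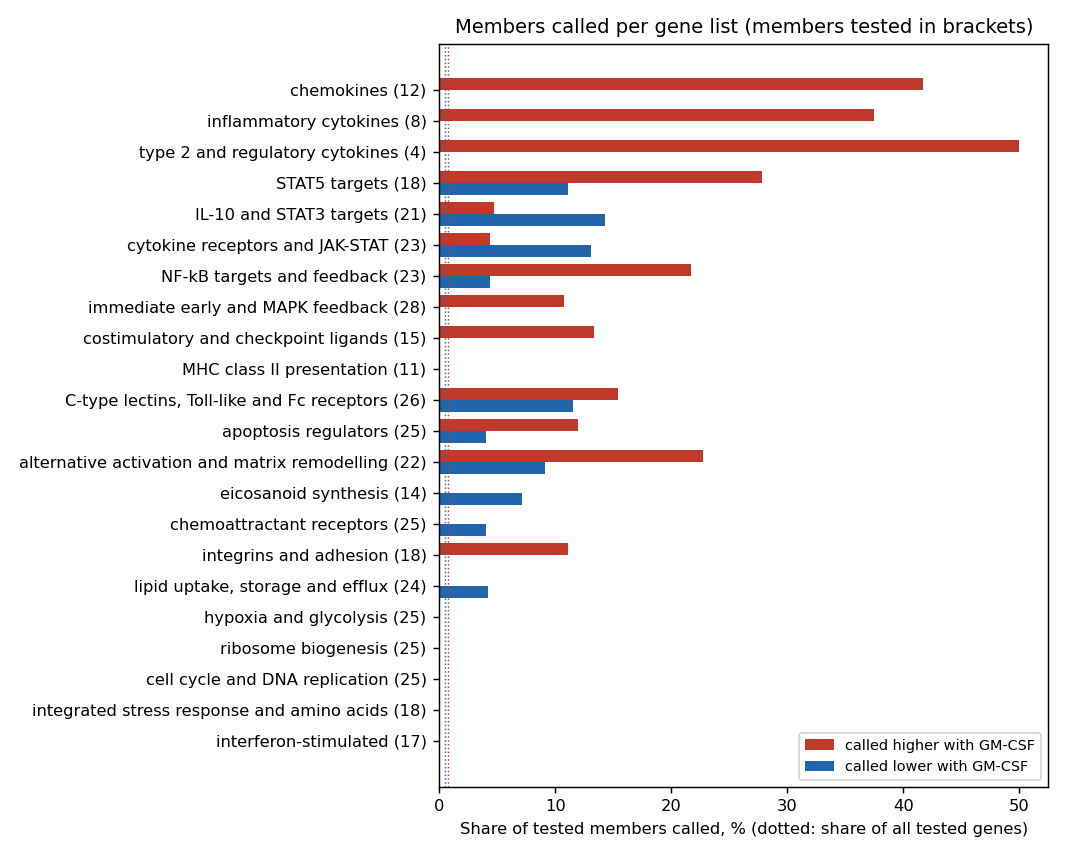
Share of the tested members of each gene list that were called, in % of members (number tested in brackets), with red bars for genes higher with GM-CSF and blue bars for genes lower; dotted lines mark the shares over all tested genes, 0.766% and 0.48%. Chemokines show 5 of 12 higher and none lower, and 5 lists from hypoxia to interferon, with the MHC class II list, show no bar.

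The alternative activation and matrix list split: Mmp12, Spp1, Plau, Plaur and Hbegf were higher with GM-CSF and Mrc1 and Igf1 lower, of 22 tested, with a median of -0.12. The macrophage elastase gene Mmp12 had 298, 196 and 317 CPM with GM-CSF and 87.8, 73.9 and 82.4 CPM with IL-10 (1.73 ± 0.27, adjusted p = 0.00116). Spp1 (osteopontin) had 227, 219 and 144 CPM with GM-CSF and 96.6, 82.5 and 117 CPM with IL-10 (1.00 ± 0.19, adjusted p = 0.00721). Igf1 (ENSMUSG00000020053, GRCm38 chr10:87858265-87937042), insulin-like growth factor 1, had 3.49, 1.64 and 5.14 CPM with GM-CSF and 21.4, 18.8 and 12.5 CPM with IL-10 (-2.39 ± 0.34, adjusted p = 0.000396). Arms did not overlap in any of these, and the lowest IL-10 library for Igf1, replicate 3, was still above the highest GM-CSF library. Spp1 lost its call without IL-10 replicate 1 or 2 (adjusted p up to 0.0761). The urokinase gene Plau was at 1.43 ± 0.34 and its receptor gene Plaur at 0.68 ± 0.16. Plau lost its call without GM-CSF replicate 1 or 3 or any 1 IL-10 library (adjusted p up to 0.214), and Plaur without GM-CSF replicate 2 or 3 or any 1 IL-10 library (up to 0.337).

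Mrc1 was the largest named fall, and it is a macrophage marker as well. Mrc1 (ENSMUSG00000026712, GRCm38 chr2:14229392-14332057), the mannose receptor CD206, had 6.17, 1.86 and 17.2 CPM with GM-CSF and 91.9, 71.8 and 36.3 CPM with IL-10 (-3.02 ± 0.69, adjusted p = 0.0353). Spread inside an arm was wide, with GM-CSF replicate 3 the highest of its arm and IL-10 replicate 3 the lowest of its arm, and the arms still did not overlap. Mrc1 lost its call without GM-CSF replicate 1 or 2 or IL-10 replicate 1 or 2 (adjusted p up to 0.183) and in a fit of the 6 libraries alone (adjusted p = 0.21). The call was also lost unfiltered and in the 12 wild-type libraries.

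Of 20 monocyte and macrophage markers, 19 were below 0 on the log2 scale and the median was -0.61. Both of the 2 called markers, Mrc1 among them, were lower, where 0.48% of all tested genes were called lower. Csf1r, Maf, Ccr2, Ly6c2 and Adgre4 were nearest to 0, from -0.14 for Ccr2 to 0.096 for Adgre4. Their summed level was 1909, 1939 and 1858 CPM with GM-CSF and 2161, 2073 and 2140 CPM with IL-10, with no marker at 0 in any of the 6 libraries. The complement gene C1qb had 2.63, 1.04 and 9.70 CPM with GM-CSF and 19.7, 17.5 and 8.01 CPM with IL-10, and its arms overlapped. Lysozyme 2 (Lyz2) had 179, 153 and 124 CPM with GM-CSF and 208, 200 and 287 CPM with IL-10 (-0.60 ± 0.18, adjusted p = 0.128). C1qb and Mrc1 also differed with the Y-linked sum inside an arm: the library with the most C1qb and Mrc1 among the GM-CSF libraries was replicate 3, with the low Y-linked sum, and the library with the least of both among the IL-10 libraries was replicate 3, with the high sum. Split at a Y-linked sum of 100 CPM, Mrc1 was at 17.2 CPM in the 1 low GM-CSF library and averaged 81.9 CPM in the 2 low IL-10 libraries. It averaged 4.02 CPM in the 2 high GM-CSF libraries and was at 36.3 CPM in the 1 high IL-10 library. The log2 ratio of Mrc1 was -2.24 in the low class and -3.14 in the high class, with 1 library on 1 side of each comparison and no test. For C1qb it was -0.93 in the low class and -2.07 in the high class. Of the 20 markers, 14 were below 0 in both classes, while Apoe, Ccr2 and Msr1 were above 0 in the low class and Adgre4, Csf1r and Maf in the high class. Adding the Y-linked level to the fit as a covariate gave 130 called genes, 127 of them among the 148. Eosinophil markers summed to 80391 to 84280 CPM with GM-CSF and 86142 to 88949 CPM with IL-10, and of the 25 only the receptor gene Cd300ld was called (-1.04 ± 0.14, adjusted p = 0.000135). The part of macrophage content in the lower genes was not tested.

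**Figure D4:**
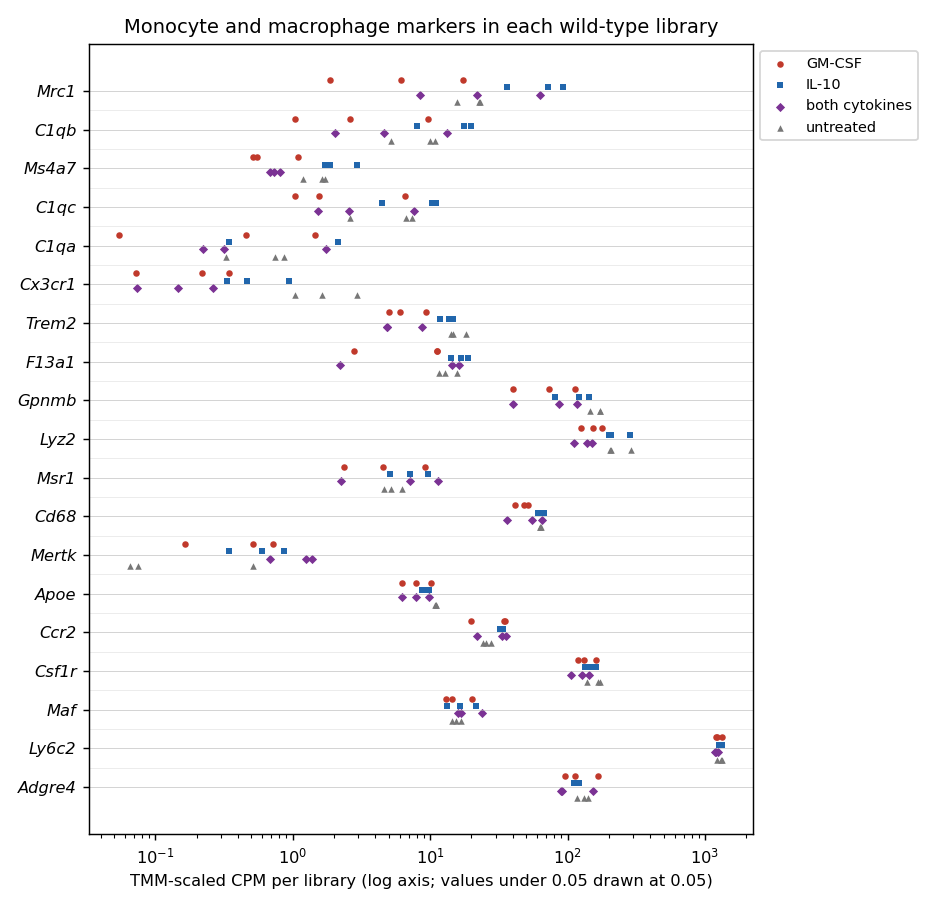
Levels of 19 of the 20 monocyte and macrophage markers in each wild-type library, as TMM-scaled CPM on a log axis, with red circles for GM-CSF, blue squares for IL-10, purple diamonds for both cytokines and grey triangles for untreated cells. In the top row (Mrc1 at 1.86 to 17.2 CPM with GM-CSF and 36.3 to 91.9 CPM with IL-10) the arms are apart, and in the bottom rows such as Adgre4 and Csf1r they overlap.

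Other lower genes had roles outside these lists. The transporter gene Slc37a2 had 3.66, 2.58 and 4.63 CPM with GM-CSF and 16.0, 12.03 and 8.61 CPM with IL-10 (-1.77 ± 0.29, adjusted p = 0.0018). Cd28, best known as a T-cell costimulatory receptor, had 2.40, 1.70 and 2.32 CPM with GM-CSF and 6.22, 6.68 and 5.08 CPM with IL-10 (-1.49 ± 0.32, adjusted p = 0.0189). The protease gene Ctsl (cathepsin L) had 19.8, 16.1 and 28.0 CPM with GM-CSF and 68.2, 64.5 and 28.3 CPM with IL-10 (-1.34 ± 0.31, adjusted p = 0.0317), so that IL-10 replicate 3 nearly met GM-CSF replicate 3. Tmem26 stood at -2.72 ± 0.39, the epimerase gene Dse at -1.34 ± 0.26, Ms4a6c at -1.32 ± 0.29 and the xanthine dehydrogenase gene Xdh at -1.14 ± 0.22. Cd28 lost its call without any 1 GM-CSF library or without IL-10 replicate 1 or 2 (adjusted p up to 0.134), and Ctsl without GM-CSF replicate 1 or 2 or IL-10 replicate 1 or 2 (up to 0.232). The Ctsl call was also lost unfiltered, in the 6 libraries alone and in the 12 wild-type libraries. Dse and Ms4a6c lost theirs without GM-CSF replicate 2 or IL-10 replicate 1 (up to 0.0777 and 0.161), and Xdh without GM-CSF replicate 2 or IL-10 replicate 2 (up to 0.0559).

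The untreated and both-cytokine libraries show on which side of the comparison each called gene stood away from cells without either cytokine. This grouping was chosen after the values were seen and is a description without a test: on the log2 scale the IL-10 mean was set to 0 and the GM-CSF mean to 1, and the untreated and both-cytokine means were placed on that scale. Of the 91 genes higher with GM-CSF, 78 had the untreated mean nearer the IL-10 mean, and in all 78 the both-cytokine mean was nearer the GM-CSF mean, with median positions of 0.154 for untreated and 1.01 for both cytokines. Ccl17 shows this pattern, with 96.5, 117 and 45.7 CPM with both cytokines, against 3.85, 4.13 and 5.31 CPM in untreated cells. In the other 13 higher genes, with Tnf, Nr4a1 and Egr2 among them, the untreated mean was nearer the GM-CSF mean. Egr2 had 11.7, 9.90 and 14.95 CPM untreated, and its IL-10 libraries lay below all of these at 6.11 to 7.83 CPM.

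Of the 57 genes lower with GM-CSF, 28 had the untreated mean nearer the GM-CSF mean, and in 23 of the 28 the both-cytokine mean was nearer the IL-10 mean. Bcl3 had 28.3, 40.2 and 21.1 CPM with both cytokines, against 5.36, 9.30 and 7.70 CPM in untreated cells. Jak3 had 133, 165 and 93.7 CPM with both cytokines, against 42.2, 55.5 and 52.7 CPM in untreated cells, and Pim2 had 693, 868 and 452 CPM with both cytokines, against 196, 238 and 256 CPM in untreated cells. In these 3 genes the libraries with IL-10, alone or with GM-CSF, were high and the others low, without overlap. The remaining 29 lower genes had the untreated mean nearer the IL-10 mean, and in 28 of them the both-cytokine mean was nearer the GM-CSF mean, Cd300ld being the exception. Igf1 had 3.18, 5.82 and 1.78 CPM with both cytokines, against 17.2, 20.5 and 19.3 CPM in untreated cells, and Slc37a2 had 3.18, 4.95 and 3.51 CPM with both cytokines, against 9.15, 15.5 and 14.7 CPM in untreated cells. Here the libraries with GM-CSF were the low ones, also when IL-10 was present. Positions share the GM-CSF and IL-10 means that chose the genes, so only the untreated and both-cytokine values are separate data.

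**Figure D5:**
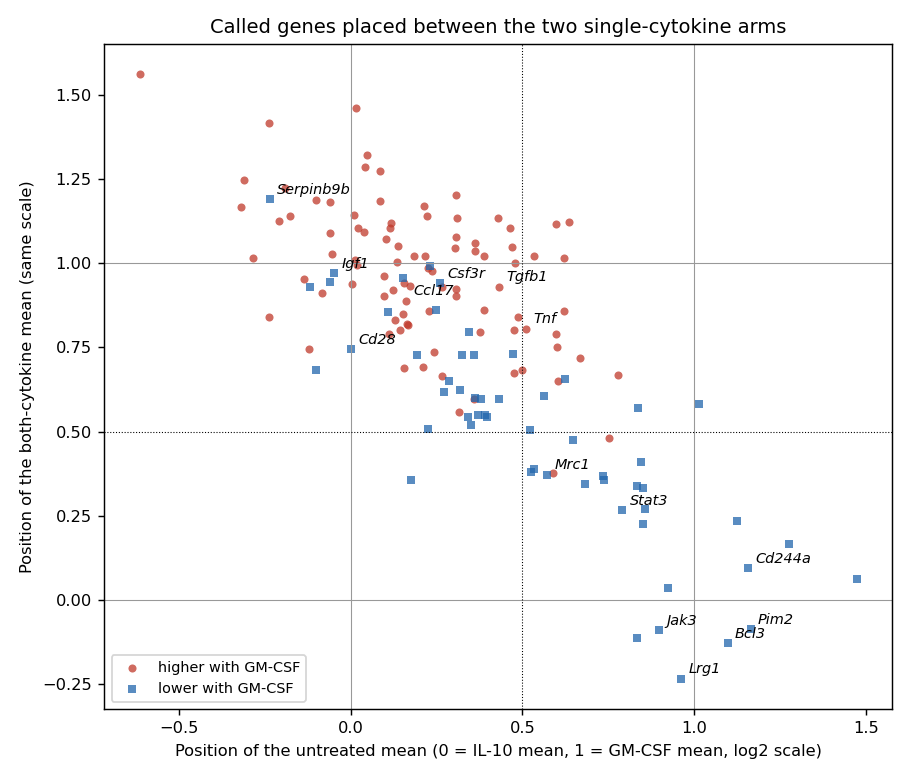
Each of the 148 called genes by the position of its untreated mean (horizontal) and its both-cytokine mean (vertical) on a log2 scale on which the IL-10 mean is 0 and the GM-CSF mean is 1, with red circles for genes higher with GM-CSF and blue squares for genes lower. Genes higher with GM-CSF gather at upper left (median 0.154 and 1.01 for the 78 with untreated nearer IL-10), and the lower genes run from there to the lower right, where Bcl3, Jak3, Pim2 and Lrg1 lie.

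The libraries labelled Irf5-/- and Csf2ra-/- give the GM-CSF response in other genotypes, each against its own untreated libraries; they were not among the 6 libraries compared, but entered the same fit and so its estimate of the spread. Libraries labelled Irf5-/- had 1394 to 1999 CPM of the Irf5 gene and the 12 wild-type libraries 42.5 to 94.3 CPM. The label was not borne out by the gene count, but which exons these reads cover is not visible in it. Irf5 was itself among the 91 genes called higher with GM-CSF than with IL-10, at 0.71. The ends of its wild-type range were GM-CSF replicate 3 at 94.3 CPM and IL-10 replicate 3 at 42.5 CPM. In the libraries labelled Irf5-/-, 29 of the 91 genes higher with GM-CSF than with IL-10 were called higher with GM-CSF than untreated, where 0.353% of all tested genes were. The log2 fold change was above 0 in 81 of the 91, with a median of 0.92, against 6088 of 11885 and a median of 0.01 for all tested genes. Ccl17 had 193, 92.3 and 79.4 CPM with GM-CSF and 3.04, 2.47 and 2.88 CPM untreated in these libraries. Axl had 65.2, 32.4 and 28.8 CPM with GM-CSF and 4.00, 8.73 and 8.95 CPM untreated. Of the 57 genes lower with GM-CSF than with IL-10, 30 were below 0 and none was called lower by edgeR, DESeq2 or limma-voom, where edgeR called 0% of all tested genes lower; 7 of the 57 were lower at an unadjusted p under 0.05, where 2.17% of all tested genes were. The 29 fell to 10 without GM-CSF replicate 1 of this genotype, and to 13, 15 and 16 without its untreated replicates 2, 1 and 3, and limma-voom called 18.

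Csf2ra was still counted in the libraries labelled Csf2ra-/-, at 38.1, 39.8 and 38.3 CPM with GM-CSF and 29.9, 28.5 and 38.4 CPM untreated, and which exons these reads cover is not visible in gene counts. There edgeR called none of the 91 genes higher with GM-CSF than untreated, and none among all 11885 tested (0%). Of the 91, 3 were higher at an unadjusted p under 0.05, where 1.65% of all tested genes were, and DESeq2 and limma-voom called none. The fold change was above 0 in 48 of the 91, with a median of 0.02. Ccl17 had 2.86, 2.11 and 3.25 CPM with GM-CSF and 5.67, 2.89 and 3.25 CPM untreated in these libraries, and the values overlapped. The GM-CSF effect in wild type minus that in the libraries labelled Csf2ra-/- was called for 5 of the 91 genes and none of the 57 by its own test over all genes, where 7 of 11885 (0.0589%) were called. The wild-type GM-CSF libraries on which it rests also chose the 91. The 5 genes were Ccl17 (5.36 ± 0.64, adjusted p = 0.00089), Ccl4 (2.87 ± 0.40, adjusted p = 0.00166), Clec4n (2.82 ± 0.50, adjusted p = 0.0266), the carbonic anhydrase gene Car4 (1.71 ± 0.24, adjusted p = 0.00166) and Spp1 (1.49 ± 0.27, adjusted p = 0.03). Set against the libraries labelled Irf5-/- in the same way, edgeR called none of the 91 and 0% of all genes, and 13 of the 91 had an unadjusted p under 0.05, where 3.16% of all genes did.

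Several lists had no called member. Of 25 ribosome biogenesis genes 24 were above 0, with a median of 0.28, from -0.04 for Pes1 to 0.82 for Rrp9. edgeR called none of them, 8 had an unadjusted p under 0.05, where 1312 of 11885 genes (11%) did, DESeq2 called 2 and limma-voom none. Of 25 hypoxia and glycolysis genes 23 were below 0, with a median of -0.17, from -0.93 for Adm to 0.11 for Slc16a3. None was called by edgeR, DESeq2 or limma-voom, and 2 had an unadjusted edgeR p under 0.05. Of 25 cell cycle and DNA replication genes 22 were above 0, with a median of 0.12, none was called by edgeR, DESeq2 or limma-voom, and none had an unadjusted edgeR p under 0.05. Over all tested genes 6047 of 11885 were above 0. For 18 integrated stress response genes and 17 interferon-stimulated genes the medians were -0.12 and 0.05, none was called by edgeR, DESeq2 or limma-voom, and none had an unadjusted edgeR p under 0.05. Among 25 chemoattractant receptors the 1 call was Gpr15 (-0.65 ± 0.15), which was lost when any 1 library was left out (adjusted p up to 0.131), and among 24 lipid genes it was the cholesterol-esterifying enzyme gene Soat1 (-0.56 ± 0.13), which lost its call without GM-CSF replicate 2 or 3 or any 1 IL-10 library (adjusted p up to 0.272). The Soat1 call was also lost in the 6 libraries alone and in the 12 wild-type libraries. Marker lists for neutrophils (19 tested), dendritic cells (9), mast cells (10), lymphocytes (5), erythroid cells (9) and stroma (8) held 2 calls in all. Of all tested genes 1.25% were called. The 2 were Csf3r and the carbonic anhydrase gene Car2 (1.18 ± 0.27). Car2 lost its call without any 1 GM-CSF library or without IL-10 replicate 1 or 2 (adjusted p up to 0.193).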

How the data were processed

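Polyadenylated RNA was sequenced from stranded libraries, per the labels' protocols. The deposited values are raw read counts, with 1 line for each Ensembl gene in each library, per the file headers. STAR, featureCounts and GRCm38.p6 are named for alignment and counting, per the submitters' processing notes. For counting, the strand setting, versions and handling of multi-mapping reads are stated in no source used here, which leaves near-identical and overlapping genes uncertain. Symbols and coordinates come from GENCODE mouse release 21, and 111 genes had no symbol. From the counts, filterByExpr, TMM scaling and robust quasi-likelihood fits were run in edgeR 4.0.16 on R 4.3.3, with 8 group means over 24 libraries. The common biological coefficient of variation was 14.1%. Genes were called at a Benjamini-Hochberg adjusted p under 0.05. Named genes were the 15 largest called rises and the 15 largest called falls whose arms did not overlap and whose mean reached 5 CPM in the higher arm, leaving out predicted models; any member of the 31 gene lists could be given beside them, and 1 named fall is not reported here. Members and lists were chosen with earlier results of these data known. Replicates of an arm differed by more than sampling noise (chi-square per degree of freedom 3.37 to 29.3), so none was merged. Alternatives were other scaling and filters, DESeq2 1.42.0 (an adjusted p given as NA stayed NA), limma-voom 3.58.1, fewer libraries, a Y-linked covariate and leaving out each library. The fits were tested on simulated data. Promoter windows of 300 bases, mostly before a gene start, are RefSeq's on GRCm38.p6, and 68 of 91 higher and 42 of 57 lower genes matched one. Distances are from RefSeq's start, which for Cish and Cxcl2 lies inside the gene coordinates given.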

Additional observations from a re-analysis of the deposited data

Results flagged for a closer look

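The GM-CSF effect, GM-CSF minus untreated, differed between wild-type cells and cells labelled Csf2ra-/- in 5 of the 91 genes that were higher with GM-CSF than with IL-10, by the test of the difference itself in edgeR with Benjamini-Hochberg adjustment over 11885 genes, 7 of which were called in all. The wild-type effect was larger by 5.36 on the log2 scale for Ccl17, by 2.87 for Ccl4, by 2.82 for Clec4n, by 1.71 for Car4 and by 1.49 for Spp1. In wild type, all 5 genes were higher in 3 of 3 GM-CSF libraries than in every untreated one. In the libraries labelled Csf2ra-/- the GM-CSF and untreated values of all 5 overlapped. Car4, for example, had 74.2, 75.8 and 92.4 CPM with GM-CSF and 98.2, 78.6 and 103 CPM untreated there.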

How the results depend on the processing

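The number of calls depended on the fit. Leaving out each of the 6 libraries in turn gave 54 to 140 called genes, 42 to 77 higher, 12 to 63 lower and 46 to 83 by at least 2-fold. A fit of the 6 libraries alone called 91 genes lower, and the stricter low-count filter left 59 genes at 2-fold or more, against 57 and 89 as reported; the cause was not tested. Otherwise the number called stayed within 1.5 times the reported 148: 147 with DESeq2's size factors, 128 unfiltered, 116 with the stricter filter, 201 in DESeq2 (146 shared), 158 in limma-voom (139 shared), 214 in the 6 libraries (125 shared) and 187 in the 12 wild-type libraries (130 shared). Each of the 148 kept its sign in every fit that tested it, which arms without overlap made nearly certain beforehand. Of 81 called genes followed through up to 14 alternatives, 38 kept their call in all and 43 lost it in at least 1. Most losses given gene by gene are those on leaving out a library. Other fits lost calls too: 12 unfiltered, 9 in the 6 libraries alone, 7 in the 12 wild-type libraries, 5 with the Y-linked covariate and 4 in limma-voom. Il21r lost its call in 10 of 14 alternatives and Casp4 in 9 of 14. Of the 91 higher genes, the 29 also called in the libraries labelled Irf5-/- became 18 in limma-voom and 10 to 30 on leaving out a library of either knockout label. Some receptor genes that were not called, with estimates near 0, changed sign and stayed uncalled. On leaving out a library, Il5ra ranged from -0.21 to 0.088, Il10ra from -0.17 to 0.085 and Csf2rb2 from -0.23 to 0.031. Counts of genes by position of the untreated and both-cytokine means stayed within 1.5 times. The knockout and wild-type libraries left out for the last 2 kinds of count were chosen after seeing the data. No paired analysis was possible because the labels share no replicate numbers between the arms. With 3 libraries an arm, depths of 11653200 to 18295944 counts limit genes of low level, such as Tlr8 and Tnfsf8, and the unstated IL-10 dose limits any reading of the arms as equal treatments.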

Other observations

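Some called genes outside the lists stood in pairs or small groups of known function; they were chosen after their values were seen and are given as values. Genes of vitamin D and retinoid handling were among them. Vdr, the vitamin D receptor gene, had 5.03, 2.47 and 5.07 CPM with GM-CSF and 0.335, 0.601 and 0.775 CPM with IL-10 (2.88 ± 0.49, edgeR adjusted p = 0.00217). Aldh1a2, which makes retinoic acid from retinal, had 2.69, 2.47 and 2.75 CPM with GM-CSF and 0.468, 0.2005 and 0.430 CPM with IL-10 (2.83 ± 0.47, edgeR adjusted p = 0.00179). Dhrs3, which turns retinal back to retinol, was on the other side, at 12.1, 15.6 and 15.6 CPM with GM-CSF and 25.5, 22.7 and 21.2 CPM with IL-10 (-0.68 ± 0.15, edgeR adjusted p = 0.0201). The Vdr and Aldh1a2 calls held in every alternative fit that tested them, while that of Dhrs3 was lost without GM-CSF replicate 1 or IL-10 replicate 1 or 2 (adjusted p up to 0.166).

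The endothelin ligand and receptor genes were called in opposite directions. Edn1, endothelin-1, had 4.57, 2.74 and 4.27 CPM with GM-CSF and 0.937, 0.267 and 0.689 CPM with IL-10 (2.60 ± 0.47, edgeR adjusted p = 0.00407), and Ednrb, an endothelin receptor, had 0.171, 0.329 and 0.289 CPM with GM-CSF and 3.61, 2.34 and 1.89 CPM with IL-10 (-3.28 ± 0.70, edgeR adjusted p = 0.0161). Dcstamp and Ocstamp, needed for the fusion of osteoclast and macrophage precursors, were both higher. Dcstamp had 5.14, 3.62 and 5.79 CPM with GM-CSF and 1.54, 2.00 and 1.21 CPM with IL-10, and Ocstamp had 14.9, 6.36 and 15.6 CPM with GM-CSF and 3.48, 3.34 and 4.56 CPM with IL-10. Irf4, a transcription factor gene of dendritic cells and type 2 responses, had 21.6, 11.6 and 19.9 CPM with GM-CSF and 5.08, 4.95 and 6.71 CPM with IL-10 (1.67 ± 0.34, edgeR adjusted p = 0.0129). The arms did not overlap in any of these genes. Edn1 lost its call without IL-10 replicate 2 (adjusted p = 0.0575), Ednrb without any 1 GM-CSF library or IL-10 replicate 1 or 2 (up to 0.138), and Dcstamp without GM-CSF replicate 3 or IL-10 replicate 1 or 3 (up to 0.0953). Ocstamp lost its call without GM-CSF replicate 1 or 3 or any 1 IL-10 library (up to 0.228), and Irf4 without GM-CSF replicate 1 or 3 or IL-10 replicate 1 or 2 (up to 0.107).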
